A study of Mus musculus with 16 samples.

Results

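The genes described here are 37 members of the hypoxia response and of glycolysis, chosen by symbol from a list of oxygen sensors, glucose transporters, glycolytic enzymes, lactate genes and known hypoxia targets. All 37 were found by name among the 49315 genes of the deposited table, and all 37 passed the filter on low values that left 24188 genes for testing. They were measured by bulk RNA sequencing of intervertebral discs from 16 mice, with 4 tail discs pooled per mouse. The groups were 3 wild-type mice with intact discs, 4 wild-type mice with injured discs, 4 Adam8EQ mutant mice with intact discs and 5 Adam8EQ mutant mice with injured discs. Adam8EQ is the label's name for a mutant form of Adam8, the gene of a membrane metalloprotease, and the title of the series gives DBA as the strain on the wild-type side. Age, sex, the way of injury and the time after it are not given in the sources used here. Within the mutants, library names begin with A8 in 2 intact and 2 injured mice and with M in 2 intact and 3 injured mice, and all wild-type names begin with D, so that name and genotype cannot be told apart. Nothing in the labels says that mice were litter mates, and each library is treated as 1 mouse.

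The disc has almost no blood vessels, and the cells of its centre, the nucleus pulposus, live at low oxygen and make most of their energy by glycolysis. Under low oxygen the prolyl hydroxylases (Egln1, Egln3) no longer mark the alpha subunits of the hypoxia-inducible factors (Hif1a, Epas1) for breakdown, so these proteins build up, pair with Arnt and turn on genes for glucose uptake, glycolysis, lactate export and pH control. This control acts mainly on protein, which RNA levels do not show.

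Implied reads per library, worked out from the steps between low values, ran from 10197074 to 24834326 (median 13300890.5). Cell markers moved with injury. The summed level of 8 macrophage markers was 131 to 231 TPM (transcripts counted relative to all transcripts and scaled for length) in the 7 intact mice, 230 to 3832 TPM in injured wild-type mice and 760 to 7507 TPM in injured mutants. Much of the sum was Lyz2 in injured wild-type mouse 3 (2453 TPM) and injured mutant 2 (5547 TPM). In mutants Lyz2, Adgre1, Cd68, C1qa, C1qb, C1qc and Mrc1 rose with a limma adjusted p under 0.05, and Csf1r did not pass (limma adjusted p = 0.410). The summed level of 7 notochordal markers, of the large cells of the nucleus pulposus, was 3329 to 6431 TPM in intact mice, 1457 to 5263 TPM in injured wild-type mice and 553 to 3345 TPM in injured mutants. Injured wild-type mice 1 and 2 had 230 and 383 TPM of macrophage markers, near intact discs, and mice 3 and 4 had 3832 and 2432 TPM. Of the markers, Shh was listed at 0 in all intact wild-type discs, Matn1 in 3 of the 4 groups, and Ly6g and Mpo in both intact groups. In such bulk tissue, fewer cells of a type and less RNA per cell cannot be told apart, and the part of these markers in the results below was not tested.

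In intact discs several of the glycolytic genes were among the most abundant transcripts. Over the 7 intact mice, Gapdh (glyceraldehyde-3-phosphate dehydrogenase) stood at 1268 ± 86.2 TPM (SD, n = 7) and only 0.11% of genes were at or above it. That share is of all 49315 genes, 14054 of which were at 0 in every mouse. Pkm (pyruvate kinase) at 837 ± 154 TPM, Aldoa (aldolase) at 829 ± 52.2 TPM, the glucose transporter gene Slc2a1 at 696 ± 137 TPM and Eno1 (enolase) at 695 ± 61.9 TPM followed. The ranges of these 4 over the mice overlapped, although Aldoa was above Eno1 in each of the 7 intact mice. Ldha (lactate dehydrogenase A, 561 ± 59.4 TPM), Bnip3 (a mitophagy gene, 545 ± 74.3 TPM), Tpi1 (triosephosphate isomerase, 536 ± 56.8 TPM) and Pgk1 (phosphoglycerate kinase, 469 ± 40.7 TPM) also overlapped one another. Other glycolytic genes stood far lower, such as Hk2 (a hexokinase) at 50.6 ± 7.55 TPM and Aldoc (another aldolase) at 32.1 ± 7.07 TPM. At the other end, Slc16a1 (the lactate transporter MCT1) stood at 16.9 ± 1.41 TPM, and the carbonic anhydrase gene Car12 was lowest at 2.06 ± 0.89 TPM. TPM is scaled for length, and the steps between low values match the joint length of all annotated exons of a gene. That length, such as 13401 bases for Pfkp and 3340 for Pfkm, can exceed that of the transcript made. Levels and shares are therefore only roughly comparable between genes. The 37 genes together made up 0.961% of all TPM in intact wild-type discs, 0.838% in injured wild-type discs, 0.896% in intact mutant discs and 0.848% in injured mutant discs. Part of some members' sequence also occurs in other genes, and how reads from it were counted is not given in the sources used here. Of all stretches of 50 bases, 53.9% were shared in Pgk1, 47.2% in Bnip3, 36.2% in Pgam1, 26.0% in Eno1, 25.8% in Pkm and 25.1% in Gapdh.

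**Figure D1:**
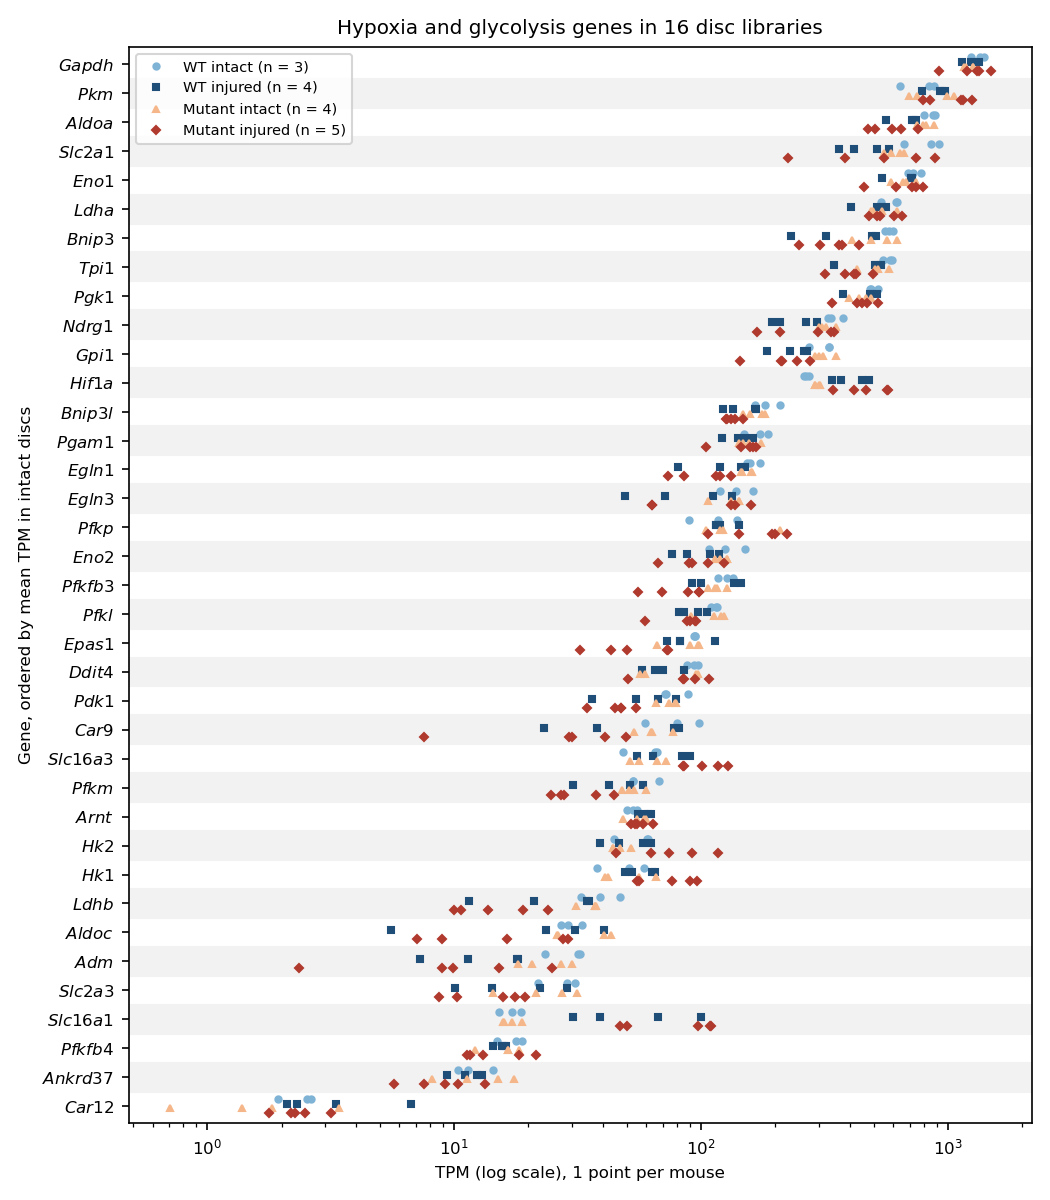
Level of each of the 37 genes in each of the 16 mice (x axis, TPM on a log scale), with genes ordered on the y axis by their mean in intact discs and groups by colour and symbol. Gapdh stands highest at 1268 TPM and Car12 lowest at 2.06 TPM, and the injured mice of both genotypes stand clear of the intact mice for Slc16a1.

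The first question was how the discs of mutants changed with injury. Of the 37 genes, 14 passed an adjusted p of 0.05 (limma, Benjamini-Hochberg over all 24188 genes), 4 higher and 10 lower. This is 37.8% of them, beside 30.8% of all genes tested, a share near the background. At an unadjusted p under 0.05 there were 22, beside 42% of all genes. Those that rose were Slc16a1, Hif1a, Slc16a3 and Hk2. Those that fell were Ldhb, Pfkm, Pdk1, Gpi1, Epas1, Aldoa, Egln1, Pfkfb3, Pfkl and Bnip3l. Of all genes, 13.1% rose and 17.7% fell. The median change of the 37 genes was -0.30 on the log2(TPM + 1) scale, beside -0.08 for all genes. All changes below are on this scale, which understates the change of low genes. The call rests in part on single mice: without intact mutant 2 or without intact mutant 4, 7 of the 37 genes passed, and without intact mutant 1, 9 passed. Calls were lost over all genes as well, with 7438 passing in the main fit and 5332 without intact mutant 2. That was the lowest count on leaving out any 1 mouse, so the counts without intact mutants 1 and 4 were not below it. Slc16a1, Hif1a, Slc16a3, Pfkm, Ldhb and Pdk1 passed whichever single mouse was left out. Gpi1 was lost without intact mutant 4 (limma adjusted p = 0.0578). The calls of Hk2, Aldoa, Egln1, Pfkfb3, Pfkl and Bnip3l are less firm: each was lost on leaving out any 1 of 4 to 9 of the mice, and of 28 alternative settings Hk2 passed in 17, Aldoa in 22, Egln1 in 20, Pfkfb3 in 19, Pfkl in 16 and Bnip3l in 12. Intact mutant 2 was among those mice for all 6 genes, and intact mutant 4 likewise, with adjusted p-values of 0.0542 to 0.123 and 0.0556 to 0.109 (limma). Among mutants named M alone, all 14 genes kept their direction and 0 of the 37 passed (limma, with 9 at an unadjusted p under 0.05). Among those named A8 all 14 kept their direction and 10 of the 37 passed, 7 of them among the 14. Calls over all genes also went as low as 725 over the settings other than leaving out 1 mouse. The counts within a name are therefore not read as a result about these genes.

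The same question in the wild type gave no gene past the threshold. With limma 0 of the 37 genes passed, beside 0.116% of all genes, and 8 had an unadjusted p under 0.05, beside 17.2% of all genes. The changes nonetheless lay mostly below 0, in 29 of 37 genes, with a median of -0.29 beside 0.01 for all genes. Above 0 were 8 of the 37, beside 51% of all genes, and in mutants 12 of the 37, beside 44.4%. The 2 injury comparisons share no mouse. In 33 of 37 genes (89.2%) the change had the same sign in both genotypes, 25 below 0 and 8 above, beside 75.0% of all genes tested. The 4 that differed in sign were Hk2, Gapdh, Ldha and Ddit4.

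**Figure D2:**
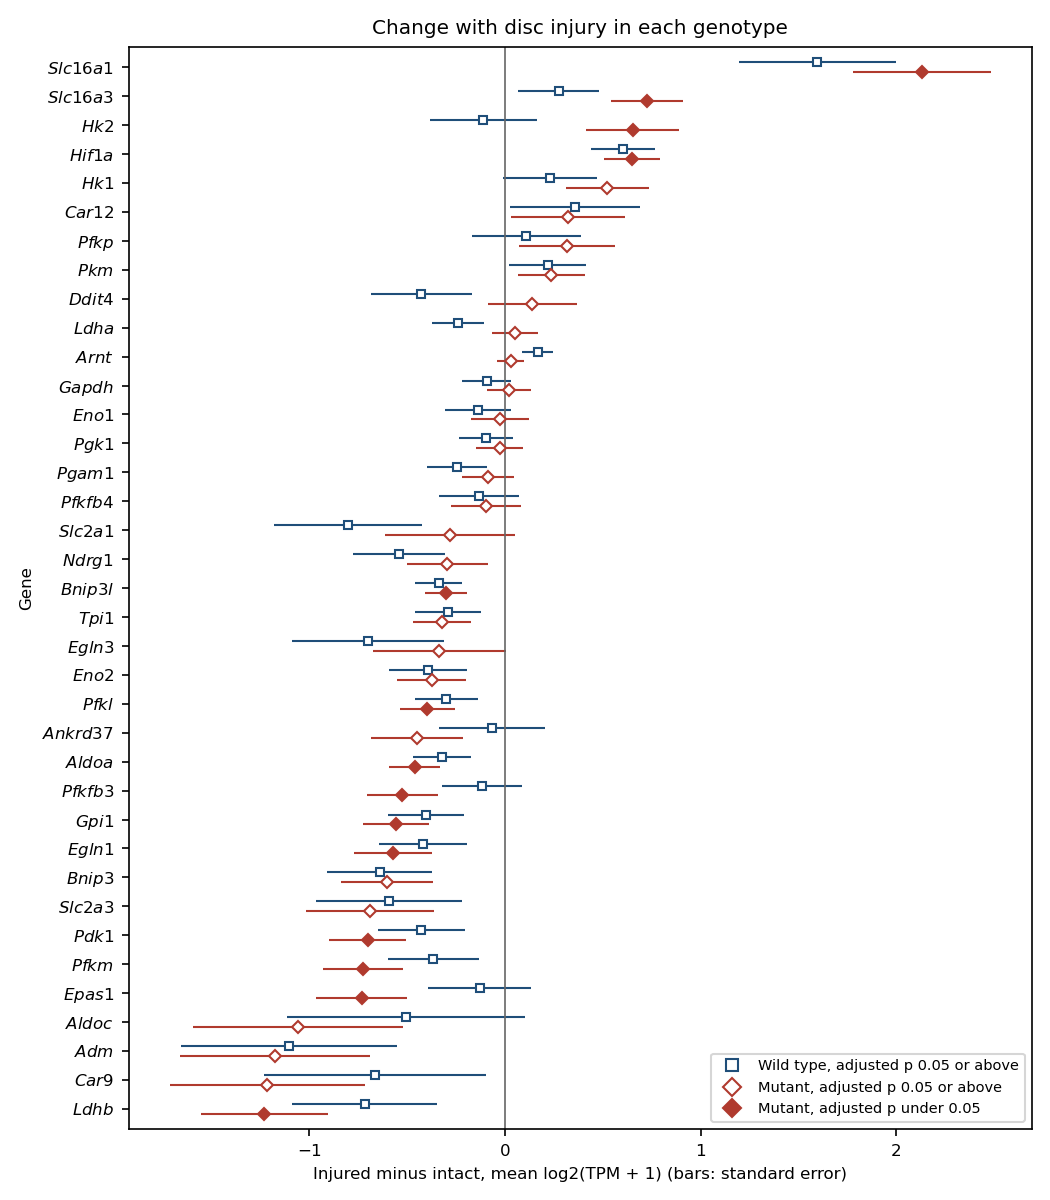
Injured minus intact difference in mean log2(TPM + 1) for each gene (x axis, bars show the standard error), in the wild type (squares) and in mutants (diamonds). Filled symbols have an adjusted p under 0.05, which 14 genes reached in mutants and 0 in the wild type, and Slc16a1 stands farthest to the right in both.

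Among the oxygen sensing genes, Hif1a was higher in every injured mouse than in every intact mouse of its genotype. Its level was 267, 260 and 273 TPM in intact wild-type mice 1 to 3, and 339, 368, 481 and 451 TPM in injured wild-type mice 1 to 4. In mutants it was 289, 301, 304 and 289 TPM in intact mice 1 to 4, and 570, 565, 468, 343 and 418 TPM in injured mice 1 to 5. Intact mice of a genotype lay close together and injured mice were spread, without overlap between injured and intact. The change in mutants was 0.65 ± 0.14 (SE, limma adjusted p = 0.00465). In the wild type the difference was 0.60 ± 0.16, which did not pass (limma adjusted p = 0.136). In each genotype the antisense gene Gm15283, which shares 4.02% of the 50-base stretches of Hif1a, showed no passing change: 92.7 and 99.5 TPM in intact and injured wild-type mice, and 101 and 88.9 TPM in mutants. Strand use in counting is not given in the sources used here, so reads of the pair cannot be told apart where they overlap.

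Epas1, which encodes the second alpha subunit, HIF2, ran the other way in mutants. It stood at 97.4, 97.9, 66.5 and 89.9 TPM in intact mutants 1 to 4 and at 32.4, 50.1, 43.0, 73.0 and 73.8 TPM in injured mutants 1 to 5. Injured mutants 4 and 5 overlapped intact mutant 3. Epas1 fell by 0.73 ± 0.23 (limma adjusted p = 0.0190), and without intact mutant 1 or 2 its adjusted p was 0.0541 or 0.0577. In wild-type mice it was 94.9, 94.1 and 94.6 TPM in intact discs and 82.1, 81.9, 114 and 72.8 TPM in injured discs, a change of -0.13 ± 0.26 that did not pass (limma adjusted p = 0.811). Egln1, the main prolyl hydroxylase, was lower in all injured mutants (73.2 to 133 TPM) than in all intact ones (145 to 162 TPM) and fell by 0.57 ± 0.20 (limma adjusted p = 0.0315). In the wild type Egln1 changed by -0.42 ± 0.23, also without overlap, and did not pass (limma adjusted p = 0.322). Egln3 and Arnt did not pass in either genotype. As a share of the summed TPM of Hif1a and Epas1, Hif1a made up 73.8% ± 0.40 in intact wild-type discs, 82.3% ± 2.57 in injured wild-type discs, 77.1% ± 3.33 in intact mutants and 89.1% ± 5.14 in injured mutants (SD, n = 3, 4, 4 and 5).

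The lactate genes moved both ways in injured mutants, with Slc16a1 and Slc16a3 higher and Ldhb and Pdk1 lower. Slc16a1 encodes MCT1, which moves lactate across the cell membrane in either direction. In intact wild-type mice 1 to 3 it was 18.7, 15.2 and 17.1 TPM, and in injured wild-type mice 1 to 4 it was 30.2, 39.1, 100 and 67.2 TPM. In intact mutants 1 to 4 it was 15.9, 18.8, 15.8 and 17.1 TPM, and in injured mutants 1 to 5 it was 109, 97.0, 110, 46.8 and 50.3 TPM. No injured mouse overlapped an intact one. The mean TPM was 4.89 times the intact level in mutants, a change of 2.13 ± 0.35 (limma adjusted p = 0.000731). In the wild type it was 3.48 times, a change of 1.60 ± 0.40 with a limma adjusted p of 0.103, short of the threshold. Without injured wild-type mouse 1 the wild-type change was 1.86 and passed (limma adjusted p = 0.0304). Among injured wild-type mice the 2 with the most Slc16a1, 3 and 4, had the most macrophage marker TPM (3832 and 2432). Injured mutants 1 to 5, with 109, 97.0, 110, 46.8 and 50.3 TPM of Slc16a1, had 1906, 7507, 1192, 2631 and 760 TPM of these markers, in a different order.

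Slc16a3 encodes MCT4, the exporter typical of glycolytic cells. It stood at 56.3, 51.7, 72.2 and 66.5 TPM in intact mutants 1 to 4 and at 85.4, 129, 117, 101 and 84.3 TPM in injured mutants 1 to 5, with no overlap. It rose by 0.73 ± 0.18 in mutants (limma adjusted p = 0.00660), and was 59.9 ± 10.1 TPM in intact and 73.4 ± 16.7 TPM in injured wild-type mice (SD, n = 3 and 4, limma adjusted p = 0.475). Slc16a1 therefore took a larger share of the pair after injury, 43.3% ± 9.46 in injured mutants beside 21.8% ± 3.63 in intact ones, and 42.6% ± 8.44 beside 22.4% ± 3.73 in the wild type.

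Ldhb, the lactate dehydrogenase subunit that favours pyruvate formation, went down in mutants while Ldha, its lactate-forming partner, did not pass. Ldhb was 31.2, 37.1, 37.5 and 37.3 TPM in intact mutants 1 to 4 and 10.7, 13.7, 9.94, 24.1 and 19.0 TPM in injured mutants 1 to 5. It fell by 1.23 ± 0.32 without overlap (limma adjusted p = 0.00758). In the wild type it was 46.9, 39.0 and 32.6 TPM in intact mice and 34.7, 35.1, 11.5 and 21 TPM in injured mice, where only mice 3 and 4 lay below the intact range (limma adjusted p = 0.296). Ldha was 499, 489, 539 and 623 TPM in intact mutants and 481, 515, 651, 607 and 532 TPM in injured mutants, which overlapped (change 0.05 ± 0.12, limma adjusted p = 0.792). The Ldhb share of the pair was 6.27% ± 0.63 in intact and 2.70% ± 0.94 in injured mutants. Pdk1, the kinase that shuts pyruvate out of the mitochondrial dehydrogenase, is a textbook hypoxia target. It was 79.1, 78.5, 65.6 and 74.0 TPM in intact mutants and 34.5, 44.9, 47.2, 54.5 and 47.4 TPM in injured mutants, and fell by 0.70 ± 0.20 (limma adjusted p = 0.0113). The wild-type change of Pdk1 was -0.43 ± 0.22 and did not pass (limma adjusted p = 0.310).

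The proximal promoters of 2 lactate genes that rose and 2 that fell are shown because hypoxia-inducible factors bind the core letters ACGTG or GCGTG. The sequences are the 250 bases before the annotated start, from RefSeq on GRCm38.p6, read 5′ to 3′ on the strand of the gene. Capitals mark every ACGTG or GCGTG on either strand (CACGT or CACGC on the strand printed), and matches may overlap, as in CACGTG. The regions are chr3:104638414-104638663 on the plus strand for Slc16a1, chr11:120948817-120949066 on the plus strand for Slc16a3, chr6:142507958-142508207 on the minus strand for Ldhb and chr2:71872974-71873223 on the plus strand for Pdk1.
Slc16a1: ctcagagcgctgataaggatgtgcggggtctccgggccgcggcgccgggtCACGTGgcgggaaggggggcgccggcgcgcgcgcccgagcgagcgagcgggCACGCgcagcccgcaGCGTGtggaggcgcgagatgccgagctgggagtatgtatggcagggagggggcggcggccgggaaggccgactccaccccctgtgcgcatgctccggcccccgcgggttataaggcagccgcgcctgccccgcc
Slc16a3: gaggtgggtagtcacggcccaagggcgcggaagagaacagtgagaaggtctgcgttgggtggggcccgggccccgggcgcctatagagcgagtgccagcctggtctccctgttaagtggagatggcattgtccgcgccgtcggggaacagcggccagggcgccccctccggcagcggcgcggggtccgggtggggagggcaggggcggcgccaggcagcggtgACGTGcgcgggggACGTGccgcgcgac
Ldhb: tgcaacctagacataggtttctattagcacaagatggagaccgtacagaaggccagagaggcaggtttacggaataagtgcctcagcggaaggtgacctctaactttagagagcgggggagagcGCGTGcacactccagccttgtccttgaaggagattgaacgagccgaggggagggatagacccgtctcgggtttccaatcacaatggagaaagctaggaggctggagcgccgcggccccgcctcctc
Pdk1: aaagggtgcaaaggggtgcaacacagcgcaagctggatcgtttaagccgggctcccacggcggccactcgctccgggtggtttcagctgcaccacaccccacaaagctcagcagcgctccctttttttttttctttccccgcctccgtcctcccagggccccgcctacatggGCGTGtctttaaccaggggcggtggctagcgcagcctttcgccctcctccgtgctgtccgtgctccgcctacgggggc
Slc16a1 holds 4 matches in these bases, Slc16a3 holds 2, and Ldhb and Pdk1 hold 1 each. RefSeq promoters of 300 bases, 250 before and 50 after the start, were matched for 33 of the 37 genes, 46 promoters in all. Either motif was present in 37 of these (80.4%), beside 43.8% of all 32851 promoters, and ACGTG alone in 52.2% beside 19.6%. The promoters of the list also held more CG dinucleotides, a median of 20 beside 7. A match was found in 4 of 4 genes that rose in mutants, 7 of 8 that fell and 18 of 21 that did neither. These matches describe letters in a window, not binding.

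**Figure D3:**
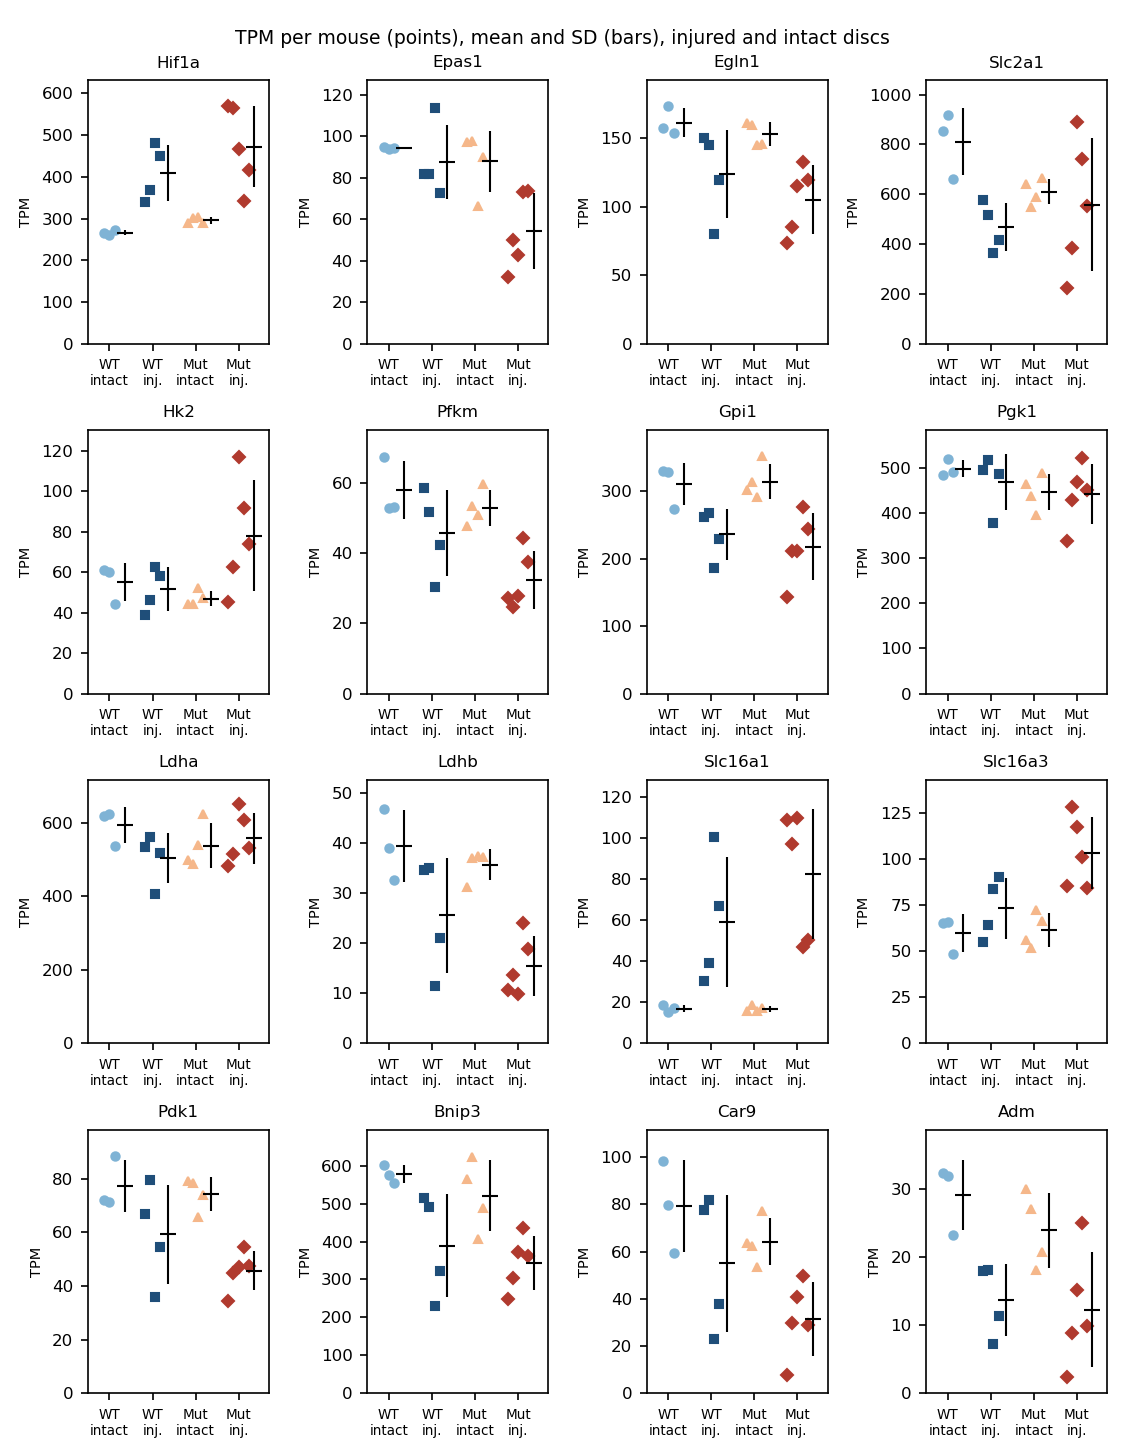
TPM of 16 genes in every mouse (points, y axes from 0), with the group mean and SD as a cross and bar, for wild-type and mutant intact and injured discs. Slc16a1 and Hif1a are higher in every injured mouse than in the intact mice of the same genotype, and Pgk1 and Ldha overlap between groups.

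Glucose entry and the first steps of glycolysis moved unevenly. Slc2a1 encodes GLUT1, the main glucose transporter of disc cells. In the wild type it was 853, 919 and 662 TPM in intact mice and 578, 515, 362 and 416 TPM in injured mice, without overlap, but the change of -0.80 ± 0.38 did not pass (limma adjusted p = 0.264). In mutants it was 640, 550, 588 and 664 TPM in intact discs and 225, 385, 888, 743 and 552 TPM in injured discs. Injured mutants 1 and 2, both named A8, lay below all intact mutants, and injured mutants 3 and 4, named M, lay above them. Within A8 the change was -1.01 ± 0.32 (limma adjusted p = 0.0489) and within M it was 0.19 ± 0.26 (limma adjusted p = 0.651). Hexokinase 2 (Hk2), which traps glucose in the cell, was 44.2, 44.2, 52.3 and 47.1 TPM in intact mutants and 45.1, 62.7, 117, 91.8 and 74.0 TPM in injured mutants. Injured mutant 1 lay among the intact mice. Hk2 rose by 0.65 ± 0.24 (limma adjusted p = 0.0366), was 55.4 ± 9.41 TPM in intact and 51.6 ± 10.8 TPM in injured wild-type mice, and had the smallest p of the list in the interaction of injury and genotype, where it did not pass (difference of changes 0.76 ± 0.36, limma adjusted p = 0.582).

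Among the 13 glycolytic enzymes, 4 fell in mutants and 0 rose, beside 17.7% of all genes lower and 13.1% higher, and 0 passed in the wild type, beside 0.116%. The share of these enzymes called in mutants is that of all genes. Gpi1, glucose-6-phosphate isomerase, was 302, 314, 291 and 352 TPM in intact mutants and 144, 212, 212, 278 and 244 TPM in injured mutants, and fell by 0.56 ± 0.17 without overlap (limma adjusted p = 0.0187). Its wild-type change of -0.40 ± 0.19, also without overlap, did not pass (limma adjusted p = 0.285). Gm26762, a noncoding gene that shares 8.29% of the 50-base stretches of Gpi1, was 18.67 TPM in intact and 11.55 TPM in injured mutants. It fell by 0.68 ± 0.21 (limma adjusted p = 0.0212). Pfkm, the muscle-type phosphofructokinase, was 47.7, 53.5, 50.9 and 59.8 TPM in intact mutants and 27.1, 24.8, 27.9, 44.4 and 37.4 TPM in injured mutants, and fell by 0.73 ± 0.20 without overlap (limma adjusted p = 0.0112). The other 2 that fell, Pfkl and Aldoa, changed by -0.40 and -0.46. In the wild type they changed by -0.30 and -0.32, without overlap, and did not pass. Of the 3 phosphofructokinase genes, Pfkm made up 17.6% ± 2.31 in intact and 11.1% ± 1.66 in injured mutants, while Pfkp made up 45.0% ± 9.86 and 58.8% ± 6.93. The enzymes of the lower steps did not pass. In mutants the difference was -0.32 ± 0.15 for Tpi1 (limma adjusted p = 0.113) and, for Eno2, another enolase gene, -0.37 ± 0.17 (limma adjusted p = 0.0982). The changes of Gapdh, Pgk1, Pgam1 and Eno1 in mutants lay between -0.09 and 0.02, and those of Gapdh, Pgk1 and Eno1 took the other sign in 7, 5 and 5 of 28 alternative settings. Pkm was 785 and 908 TPM in intact and injured wild-type mice and 876 and 1033 TPM in mutants, which did not pass. Gm49759, an unclassified transcript that shares 12.1% of the 50-base stretches of Pkm, stood at a mean of 322 TPM. Pfkfb3, which makes the fructose 2,6-bisphosphate that speeds phosphofructokinase, fell by 0.52 ± 0.18 in mutants (limma adjusted p = 0.0304), and Pfkfb4 did not pass.

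**Figure D4:**
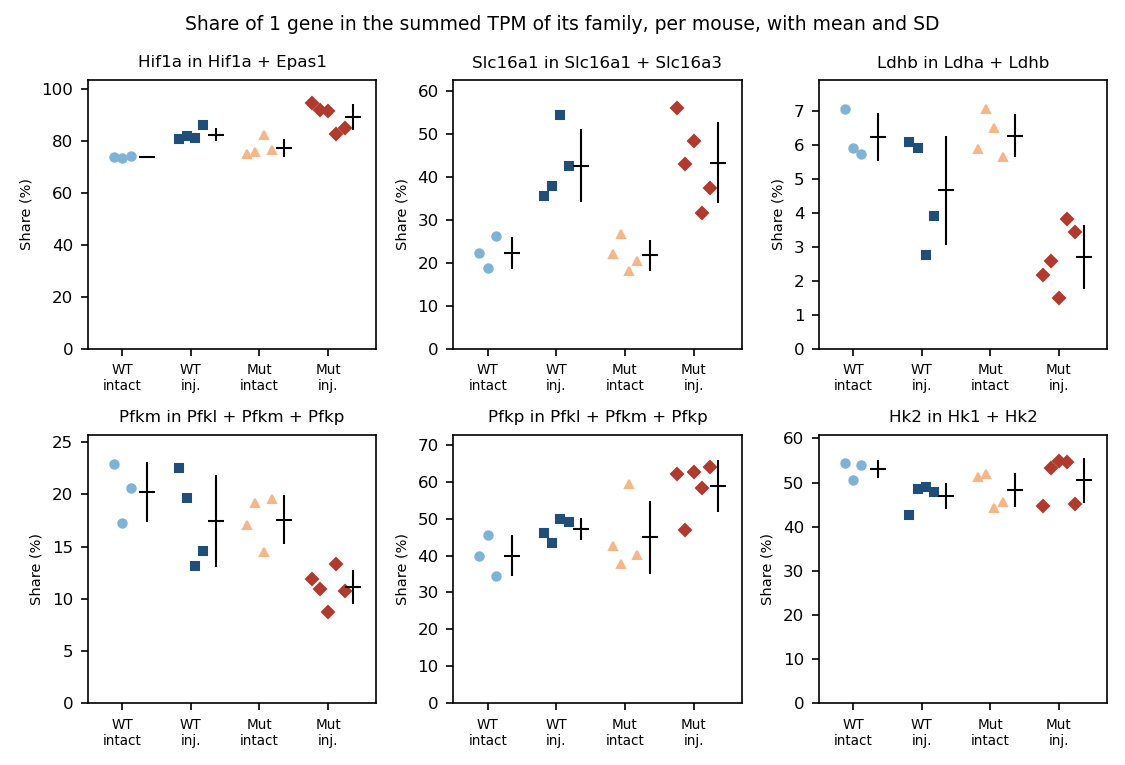
Share of 1 gene in the summed TPM of its gene family in each mouse (points, y axes in percent from 0), with the group mean and SD. The Slc16a1 share is about 22% in intact and 43% in injured discs of both genotypes, and the Ldhb and Pfkm shares are lowest in injured mutants.

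Of the 8 other hypoxia targets, 1 passed in mutants, beside 30.8% of all genes, and 0 in the wild type, beside 0.116%. Bnip3l, a mitophagy receptor like Bnip3, fell by 0.30 ± 0.11 in mutants (limma adjusted p = 0.0467). Its change in the wild type, -0.34 ± 0.12, was of like size and did not pass (limma adjusted p = 0.208). Car9, a carbonic anhydrase of the cell surface that is among the most hypoxia-bound genes, was 63.6, 62.5, 53.6 and 77.3 TPM in intact mutants and 7.57, 29.9, 40.9, 49.9 and 29.1 TPM in injured mutants. The groups did not overlap, and the change of -1.21 ± 0.50 was just short of the threshold (limma adjusted p = 0.0544). In the wild type Car9 was 98.6, 79.8 and 59.4 TPM in intact mice and 77.5, 81.8, 23.0 and 37.8 TPM in injured mice, which overlapped. Gm12454, an antisense gene that shares 4.72% of the 50-base stretches of Car9, was 12.4 TPM in intact and 6.05 TPM in injured mutants. Adm, the vessel-dilating peptide adrenomedullin, was 32.3, 31.8 and 23.2 TPM in intact and 18.0, 18.1, 7.26 and 11.4 TPM in injured wild-type mice, without overlap (change -1.10 ± 0.55, limma adjusted p = 0.284). In mutants it was 30.0, 27.0, 18.1 and 20.7 TPM in intact mice and 2.35, 8.90, 15.1, 25.0 and 9.87 TPM in injured mice (change -1.17 ± 0.48, limma adjusted p = 0.0570). Car12 stayed between 0.70 and 6.68 TPM in all mice. Bnip3 was 577 and 390 TPM in intact and injured wild-type mice and 521 and 344 TPM in mutants, and did not pass in either (limma adjusted p = 0.237 and 0.0519).

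Counted without a test, 13 of the 37 genes had no overlap between injured and intact wild-type mice, 3 higher and 10 lower, beside 15.6% of all genes (9.22% higher and 6.34% lower). In mutants 10 did, 3 higher and 7 lower, beside 27.2% of all genes (12% higher and 15.3% lower).

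**Figure D5:**
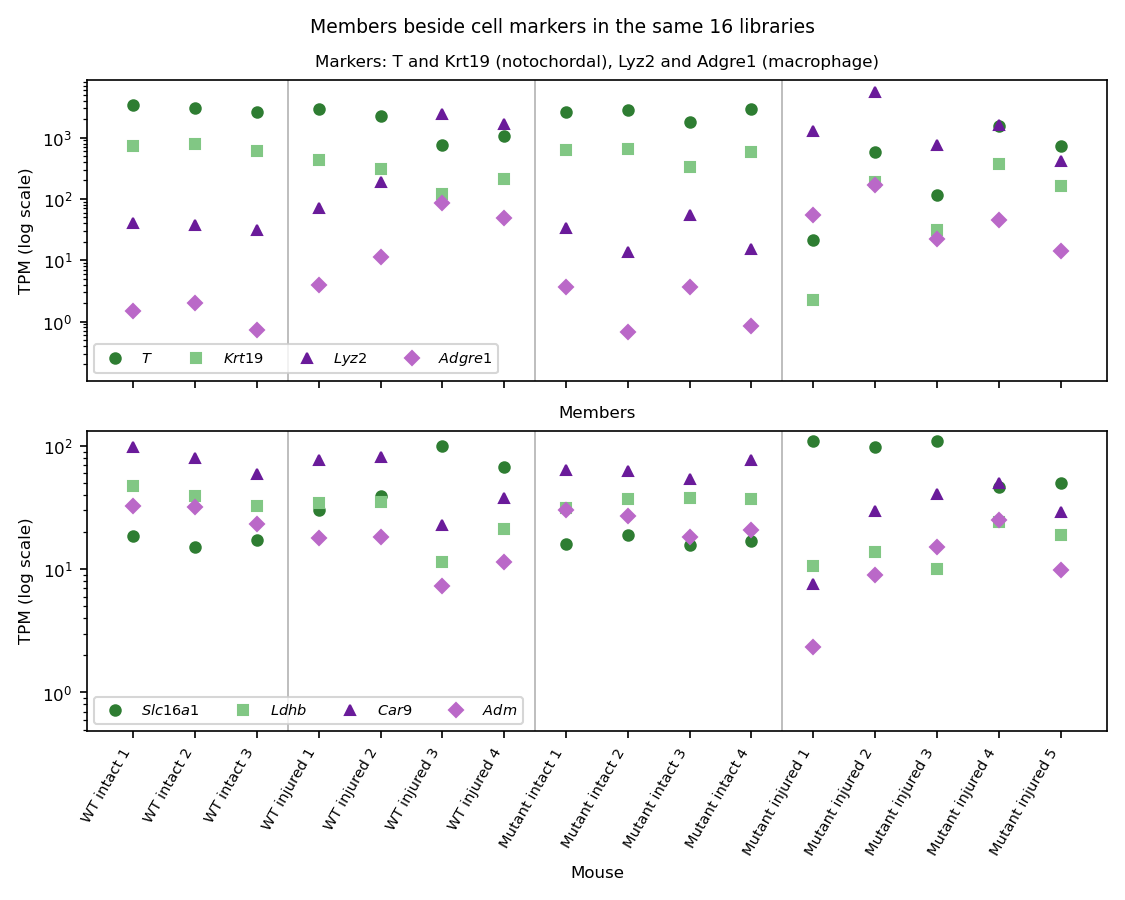
Notochordal and macrophage marker genes (upper panel) and 4 of the 37 genes (lower panel) in the same 16 mice (x axis), in TPM on a log scale. In injured wild-type mice 3 and 4 and in the injured mutants, T, Ldhb and Car9 are lower and Lyz2, Adgre1 and Slc16a1 higher than in every intact mouse, and Krt19 is lower except in injured mutant 4 (373 TPM, beside 337 TPM in intact mutant 3).

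Among the injured mutants, some members had the same order of mice as the notochordal gene T and others did not. Gpi1, Aldoa, Tpi1 and Eno2 had its order, with Aldoa at 473, 595, 505, 759 and 646 TPM in injured mutants 1 to 5. Ldhb differed from that order only in mutants 1 and 3, and Car9 and Adm matched it only at the ends. T was 21.5, 593, 115, 1568 and 721 TPM in injured mutants 1 to 5. Mutant 1, lowest in T, had the lowest Car9 and Adm values of the 5 (7.57 and 2.35 TPM), and mutant 4, highest in T, had the highest Car9, Adm and Ldhb values. Mutant 3, also low in T, had the lowest Ldhb (9.94 TPM) but the highest Slc2a1 (888 TPM), Hk2 (117 TPM), Pkm (1248 TPM) and Ddit4 (108 TPM) values. The Car9 (40.9 TPM) and Adm (15.1 TPM) values of mutant 3 were above those of mutants 2 and 5, which had more T. The part of cell makeup in these differences was not tested.

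The genotype comparisons gave no called member. In intact discs 0 of the 37 genes passed, beside 0.0165% of all genes, and 0 had an unadjusted limma p under 0.05, beside 3.78% of all genes. Hif1a was the one gene of the 37 without overlap (6.18% of all genes had none), at 267 ± 6.20 TPM in wild-type and 295 ± 8.04 TPM in mutant intact discs (SD, n = 3 and 4, change 0.15 ± 0.16, limma adjusted p = 1). In injured discs 0 of the 37 genes passed, beside 0.918% of all genes, and 6 had an unadjusted limma p under 0.05, beside 20.3% of all genes. The smallest adjusted p was that of Epas1, at 87.6 ± 17.9 TPM in wild-type and 54.5 ± 18.4 TPM in mutant injured discs (change -0.72 ± 0.23, limma adjusted p = 0.0961). All 37 genes overlapped between the genotypes there, while 4.77% of all genes did not. Without injured wild-type mouse 3, 4 of the genes passed, Pfkm, Pfkfb3, Ldhb and Pdk1, all lower in mutants. In that setting 2253 of all 24188 genes passed, so the count of 4 among 37 is near the background. For the interaction of injury and genotype, 0 of the 37 genes passed, beside 0% of all genes, and 1 (Hk2) had an unadjusted limma p under 0.05, beside 8.18% of all genes. So no member that passed in injured mutants alone was shown to respond differently between genotypes.

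Other genes of the pathway, a list of 65 of which 62 were tested, moved both ways in injured mutants, with 16 higher and 12 lower (45.2% called, beside 30.8% of all genes), and 0 passed in the other comparisons. Among the largest changes were those of the haem oxygenase gene Hmox1 (3.12 ± 0.53), the myeloid hexokinase Hk3 (2.77 ± 0.84) and the glycogen regulator Ppp1r3c (-2.49 ± 0.59). Hmox1 was 32.8 ± 9.75 TPM in intact and 327 ± 216 TPM in injured mutants, and Ppp1r3c 742 ± 93.7 and 182 ± 146 TPM (SD, n = 4 and 5). Hk3 was listed at a mean of 0.27 TPM in intact and 11.2 TPM in injured mutants. Among 7 regulators of the factors, 2 fell and 2 rose. Cited2 (-1.40 ± 0.32) and Hif3a (-1.76 ± 0.54) fell, and Vhl, which marks the alpha subunits for breakdown, rose by 0.33 ± 0.10. Arnt2 rose by 1.22 ± 0.31 at a low level, with means of 0.10 TPM in intact and 1.645 TPM in injured mutants.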

How the data were processed

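Ribosome-depleted RNA libraries were made from 4 pooled tail discs of each of 16 mice, per the labels' protocols (the molecule label reads polyA). The authors deposited 1 table of TPM values, each column summing to 1000000. bcl2fastq 2.20 and GRCm38 are named in the submitters' processing notes; aligner, counting and strand use are not given in the sources used here. Groups came from the titles. The tests were limma 3.58.1 (R 4.3.3; lmFit, eBayes with trend) on log2(TPM + 1), all 16 libraries in 1 fit, on genes reaching 1 TPM in 3 or more libraries, adjusted by Benjamini-Hochberg over 24188 genes at 0.05. p-values measure the spread between these mice. Scripts were tested on simulated data. Shares, promoter matches and implied reads (94.2% to 95.0% of low values within 0.05 of a whole number, from GENCODE M21 exon lengths) were computed in Python 3.11.15 and are approximate where they rest on lengths. Promoters came from RefSeq. All 37 members could be named; full statistics went to the 8 smallest p-values of a contrast and to sentences on 1 gene. Members and lists were chosen with earlier results of these data known. Alternatives were other pseudocounts, filters, scalings, covariates, subsets and leaving out each library. Of the other pathway genes, 1 that the naming rule would take is not reported here.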

Additional observations from a re-analysis of the deposited data

Results flagged for a closer look

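Of 111 groups of 4 or 5 mice, 6 held 1 mouse set apart from the rest by Dixon's criterion at 95%, which chance alone gives in about 1 in 20 groups. Injured wild-type mouse 3 was lowest of its group for Aldoa (560.4 TPM), Tpi1 (345.5 TPM) and Eno1 (540.2 TPM), and it also had the most macrophage marker TPM of its group (3832). Injured mutant 1 was lowest for Pfkl (59.3 TPM) and Pgam1 (105.1 TPM). Intact mutant 1 was lowest for Ldhb (31.2 TPM).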

How the results depend on the processing

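In injured mutants 14 members passed. Leaving out each mouse in turn gave 7 to 17, while all genes called ran from 5332 to 7985, beside 7438 in the main fit. The mutants named M alone gave 0 members. Over the settings other than leaving out 1 mouse, all genes called ran from 725 to 7952. In the wild type 0 passed, and leaving out each mouse gave 0 to 1 (2 to 452 of all genes). Between genotypes in injured discs 0 passed, and leaving out each mouse gave 0 to 4 (7 to 2253 of all genes). Replicate numbers do not pair the mice (same-number correlations -0.217 to 0.0779). With the replicate block 10 members passed in mutants and 0 in each other comparison. All genes called in mutants with this block lay within the 725 to 7952 above. Median-of-ratios scaling gave 5 higher and 6 lower in mutants. Over all genes it called 7516, beside 7438 in the main fit, and 52% rather than 42.6% of all called genes were higher. Members with changes near 0 took the other sign in some settings, such as Gapdh in 7 of 28 in mutants. Among the members with the smallest p-values of each comparison, reversed signs, none past the threshold, were Ddit4 (0.0515) and Car12 (0.0791) between genotypes in intact discs with only mutants named M, and Hif1a (-0.0920) there with a skeletal muscle covariate. The cause was not tested.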
